A study of Mus musculus and Homo sapiens with 33 samples.

Results

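The genes described here form the switch by which a cell enters mitosis. They are the CDC25 phosphatase genes Cdc25a, Cdc25b and Cdc25c, the inhibitory kinase genes Wee1 and Pkmyt1, the Greatwall kinase gene Mastl with its substrates Ensa and Arpp19, and the checkpoint kinase genes Chek1 and Chek2. They were chosen by symbol, and all 10 were found once each among 38924 Ensembl genes of a read count matrix. All 10 passed the filter on low counts, which left 13355 genes to test. The libraries came from KPL cells, a murine lung adenocarcinoma line. In 3 libraries the cells had received 4-hydroxytamoxifen (4-OHT, a dose written as 10 nm) for 72 hours, which deletes Lin9 per the labels, and in 3 control libraries, named EtOH in the sample descriptions, they had not. The labels give neither the alleles of the line, nor how 4-OHT brings the deletion about, nor whether the line is 1 clone, and no library received 4-OHT without a Lin9 deletion. Effects of the agent and of the deletion therefore cannot be told apart.

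Entry into mitosis depends on the kinase CDK1 bound to cyclin B. WEE1, in the nucleus, and PKMYT1, on membranes, hold CDK1 inactive by phosphorylating it next to its ATP-binding site, and the CDC25 phosphatases remove these phosphates. Greatwall, encoded by Mastl, phosphorylates ENSA and ARPP19, which then inhibit PP2A-B55, the phosphatase that reverses CDK1 phosphorylation. CHK1 and CHK2 act downstream of the damage kinases ATR and ATM and restrain CDC25 when DNA is damaged or incompletely copied. LIN9 is a subunit of MuvB, which joins B-MYB to activate genes expressed late in the cell cycle.

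The libraries held between 5859826 and 5913942 counted reads. Lin9 stood at 17.8 ± 0.615 CPM in 4-OHT libraries and 25.1 ± 3.29 CPM in control libraries (CPM with TMM-scaled library sizes, mean ± SD, n = 3 each). Lin9 was called lower, at 71.1% of the control level, with no overlap between groups (log2 fold change -0.49, edgeR adjusted p = 0.0011). The count is of the whole gene, so it also takes reads from any exons outside a deleted part. The labels do not give the deleted part, and the share of cells that lost Lin9 was not measured. Of the epithelial markers all 6 were tested, with summed levels of 5528 to 5693 CPM in 4-OHT and 5564 to 5641 CPM in control libraries, and Epcam, Cdh1 and Cldn7 were called lower. Of the lung lineage markers Sftpc and Napsa had 0 reads in all 6 libraries and Sftpb was near 0, while Nkx2-1 stood at 4.74 ± 0.522 CPM in 4-OHT and 6.51 ± 1.29 CPM in control libraries (not called). The remaining lung lineage marker, Foxa2, was clearly present, at 44.6 ± 3.01 CPM in 4-OHT and 40.7 ± 1.17 CPM in control libraries (not called). Summed fibroblast markers lay between 7.09 and 8.99 CPM in 4-OHT and 7.89 and 10.6 CPM in control libraries, immune markers between 5.26 and 5.94 CPM and between 4.12 and 8.05 CPM, and endothelial markers between 2.37 and 4.05 CPM and between 2.40 and 3.26 CPM, in the same order of groups. Only 2 of 6 fibroblast, 2 of 5 immune and 0 of 4 endothelial markers passed the filter on low counts, and none of those tested was called. The labels give no date or batch. Nothing in them says that the replicates were cultured apart, so p-values cover only how these libraries vary, and that variation may be technical.

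After 4-OHT, 3 of the 10 genes fell and none rose. Cdc25b, Cdc25c and Wee1 were lower, at 58.9%, 65.9% and 66.2% of the control level, and the remaining 7 were not called (quasi-likelihood test of edgeR, with p adjusted by the method of Benjamini and Hochberg over all genes tested and called under 0.05). Among all genes tested 5.17% were called lower and 4.61% higher, together 9.79%. The counts for the 10 genes were also 3 and 0 at an unadjusted p under 0.05, which 10.5% of all genes passed as lower and 10.7% as higher. They were again 3 and 0 in DESeq2 (2.75% of all genes lower, 1.56% higher) and in limma-voom (5.12% lower, 4.53% higher). Against a null of a 1.5-fold change (edgeR glmTreat), 0 of the 10 genes were called, with 0.337% of all genes called lower and 0% higher. The CPM values of the groups did not overlap for the same 3 genes, all lower, against 12.2% of all genes lower and 12.1% higher without overlap. The median log2 fold change of the 10 genes was -0.03, and that of all genes tested was 0.00052. The genes that fell thus included activators of CDK1 and an inhibitor of CDK1 alike. In bulk RNA, fewer cells in the late cell cycle and less RNA per cell cannot be told apart, and the share of cells in each phase was not measured in these libraries.

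**Figure D1:**
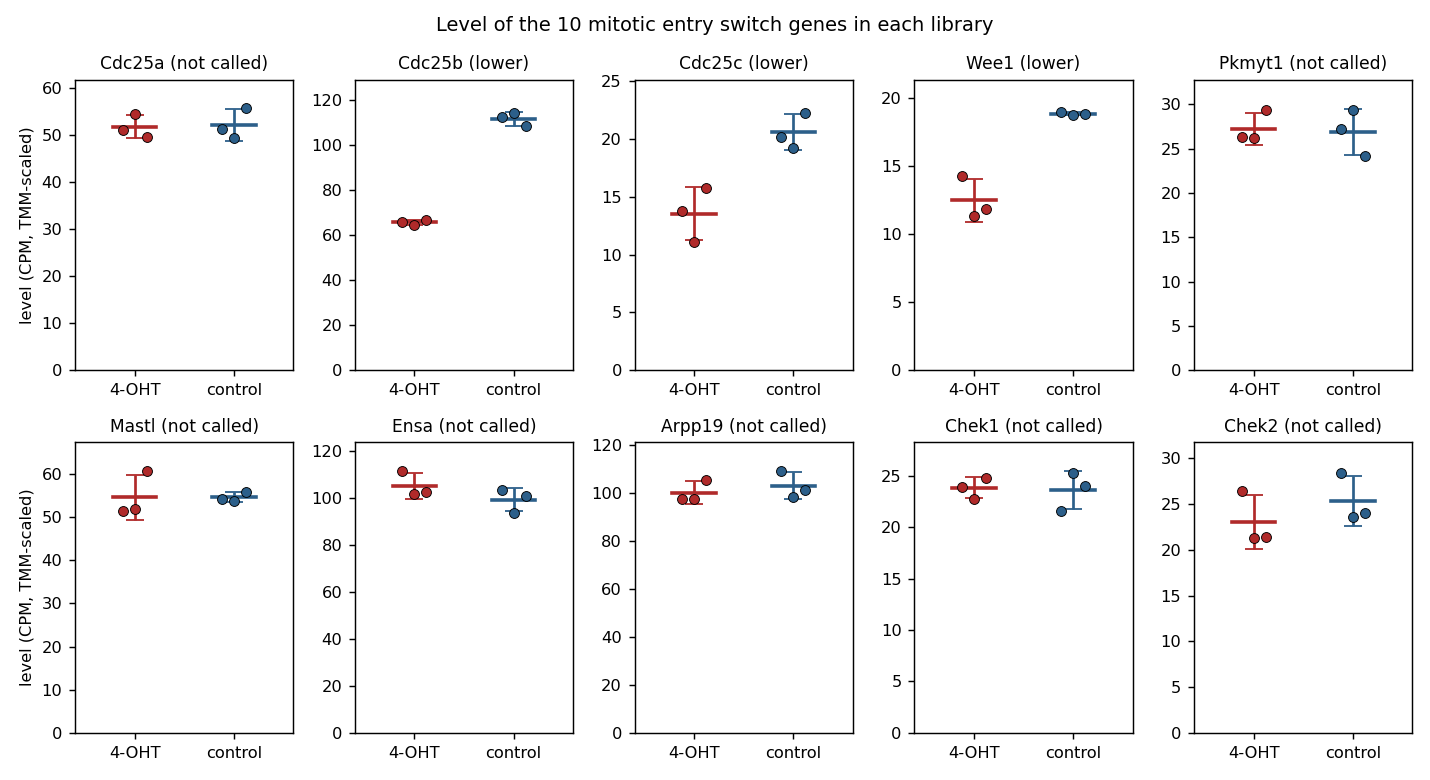
Level of each of the 10 switch genes in CPM (vertical axes, each from 0), with the 3 4-OHT libraries in red at the left and the 3 control libraries in blue at the right of each panel. Points are libraries, thick bars are means and whiskers are SD. The groups do not overlap for Cdc25b, Cdc25c and Wee1 and overlap for the other 7 genes.

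Cdc25b encodes the CDC25 phosphatase known for starting CDK1 activation at the centrosome before mitosis. It is annotated as ENSMUSG00000027330 on chromosome 2, 131186436 to 131198511 (RefSeq annotation of GRCm38.p6). It was counted at 389, 382 and 392 reads in the 4-OHT libraries, against 656, 665 and 631 reads in the control libraries. All 4-OHT values lay far below all control values, and the spread within each group was small. Its level was 65.6 ± 1.08 CPM in 4-OHT libraries and 111.5 ± 3.09 CPM in control libraries (SD, n = 3 each). The log2 fold change was -0.76 (SE 0.06, 95% interval -0.88 to -0.65, edgeR adjusted p = 5.2e-20). By p-value Cdc25b stood at place 31 of 13355 genes.

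Cdc25c encodes a phosphatase that CDK1 and polo-like kinase activate in a feedback loop at mitotic entry. It is annotated as ENSMUSG00000044201 on chromosome 18, 34732993 to 34751564, and a pseudogene, Gm3550, overlaps its span. It was counted at 81, 66 and 93 reads in the 4-OHT libraries, against 118, 112 and 130 reads in the control libraries. The highest 4-OHT library stayed below the lowest control library, although the 4-OHT libraries varied more among themselves than those of Cdc25b. Its level was 13.6 ± 2.33 CPM in 4-OHT libraries and 20.6 ± 1.56 CPM in control libraries (SD, n = 3 each). The log2 fold change was -0.60 (SE 0.13, 95% interval -0.85 to -0.35, edgeR adjusted p = 0.00030).

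Cdc25a encodes the family member that also acts at the start of DNA replication, through CDK2. It is annotated as ENSMUSG00000032477 on chromosome 9, 109875518 to 109893895. It was counted at 301, 322 and 292 reads in the 4-OHT libraries, against 299, 287 and 325 reads in the control libraries. The groups overlapped fully. The log2 fold change was -0.01 (SE 0.07, edgeR adjusted p = 0.959), with a 95% interval of -0.15 to 0.13.

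The CDC25 genes were set against each other within each library. The log2 level of Cdc25b minus that of Cdc25a was 0.35 ± 0.09 in 4-OHT libraries and 1.096 ± 0.130 in control libraries, a difference of -0.75 with no overlap between groups (SD, n = 3 each). Cdc25c minus Cdc25a was -1.92 ± 0.31 in 4-OHT libraries and -1.33 ± 0.02 in control libraries, a difference of -0.59, also with no overlap. In each of these comparisons the exact permutation test, two-sided, gave p = 0.1, the smallest p that 3 against 3 libraries allow (0.2 after Benjamini-Hochberg adjustment over 6 pairs of genes). Cdc25c minus Cdc25b differed by 0.16 between groups, and the groups overlapped (exact permutation p = 0.4, adjusted 0.48). These values are differences within a library and do not rank the genes by abundance, since lengths of the transcripts were not used.

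The start regions of the paralogues Cdc25b and Cdc25a are shown because the first was called lower and the second was not called. Each is a RefSeq window on GRCm38.p6 of 250 bases before and 50 bases after a start site, read 5′ to 3′ on the plus strand. The Cdc25b window is chr2:131186698-131186997 and lies inside the annotated span of the gene, so it belongs to a start site downstream of the outermost one. The Cdc25a window is chr9:109875329-109875628, and its start site also lies within the span of the gene. Capitals mark matches, on either strand, to the CHR word TTTGAA or its variant TTCGAA, to CCAAT, and to the E2F core word TTCCCGC or one of its variants TTGGCGC, then TTCGCGC, then TTGCCGC. The CHR (cell cycle genes homology region) is the element MuvB is known to bind, CCAAT is bound by NF-Y, and the E2F words by E2F factors.
Cdc25b: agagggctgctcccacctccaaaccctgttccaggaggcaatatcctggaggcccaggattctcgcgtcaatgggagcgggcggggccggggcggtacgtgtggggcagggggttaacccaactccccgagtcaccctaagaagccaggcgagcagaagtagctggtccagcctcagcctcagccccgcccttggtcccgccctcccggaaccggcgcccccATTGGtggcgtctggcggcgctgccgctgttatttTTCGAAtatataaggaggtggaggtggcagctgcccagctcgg
Cdc25a: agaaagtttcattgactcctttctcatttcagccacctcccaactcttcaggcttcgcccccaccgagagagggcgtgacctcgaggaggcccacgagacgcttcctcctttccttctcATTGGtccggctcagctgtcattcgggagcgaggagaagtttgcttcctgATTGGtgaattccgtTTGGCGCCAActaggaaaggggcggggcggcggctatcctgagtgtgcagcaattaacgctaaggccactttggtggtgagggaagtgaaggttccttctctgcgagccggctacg
Cdc25b held the CHR word TTCGAA, which reads the same on both strands, from 7 bases after the start site, and a CCAAT word on the minus strand 28 bases before it. Cdc25a held no CHR word in its window. It held a pair of CCAAT words on the minus strand, 131 and 81 bases before the start site, and a pair of overlapping E2F words TTGGCGC, one per strand, at 66 and 63 bases before it.

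Start windows were listed for 7 of the 10 genes, and for Cdc25c, Wee1 and Pkmyt1 there was no entry. A CHR word occurred in 1 of the 7 genes, Cdc25b, and in 19.2% of 32851 RefSeq windows of the same length. A CCAAT word occurred in 5 of the 7 (Cdc25a, Cdc25b, Mastl, Ensa and Chek2) and in 37.4% of all windows. An E2F core word occurred in 3 of the 7 (Cdc25a, Chek1 and Chek2) and in 9.57% of all windows. Arpp19 held no match in either of its windows. Such matches describe these letters in these windows and no more, since binding was not analysed here.

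**Figure D2:**
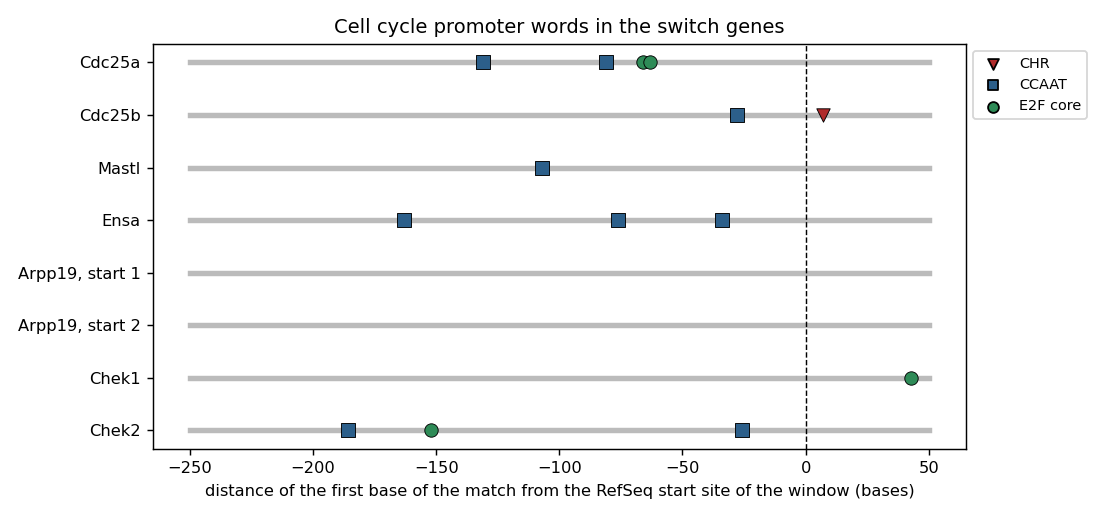
Position of the CHR (red triangles), CCAAT (blue squares) and E2F core (green circles) words in the start windows of the 7 switch genes with an entry, as distance in bases from the start site of each window (horizontal axis). The single CHR word lies 7 bases after the start site of Cdc25b, and Arpp19, which has 2 windows, holds no match.

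Wee1 encodes the nuclear kinase that phosphorylates CDK1 on tyrosine. It is annotated as ENSMUSG00000031016 on chromosome 7, 110122059 to 110143299. It was counted at 84, 67 and 70 reads in the 4-OHT libraries, against 111, 109 and 110 reads in the control libraries. The groups did not overlap, and the control libraries were almost identical. Its level was 12.5 ± 1.56 CPM in 4-OHT libraries and 18.9 ± 0.140 CPM in control libraries (SD, n = 3 each). The log2 fold change was -0.60 (SE 0.13, 95% interval -0.85 to -0.34, edgeR adjusted p = 0.00047).

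Pkmyt1 encodes the membrane-bound relative of WEE1, which phosphorylates CDK1 on threonine and tyrosine. It is annotated as ENSMUSG00000023908 on chromosome 17, 23726336 to 23736735, and its span overlaps the protein-coding genes 1520401A03Rik and Paqr4, whose reads may not be fully separable from its own. It was counted at 155, 155 and 173 reads in the 4-OHT libraries, against 159, 171 and 141 reads in the control libraries. The groups overlapped, with both the lowest and the second-highest read count in control libraries. The log2 fold change was 0.02 (SE 0.10, edgeR adjusted p = 0.951), with a 95% interval of -0.18 to 0.22. The log2 level of Pkmyt1 minus that of Wee1 was 1.11 ± 0.22 in 4-OHT libraries and 0.50 ± 0.14 in control libraries (SD, n = 3 each). This difference of 0.61 came with no overlap between groups (exact permutation p = 0.1, the smallest possible, and 0.2 adjusted).

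**Figure D3:**
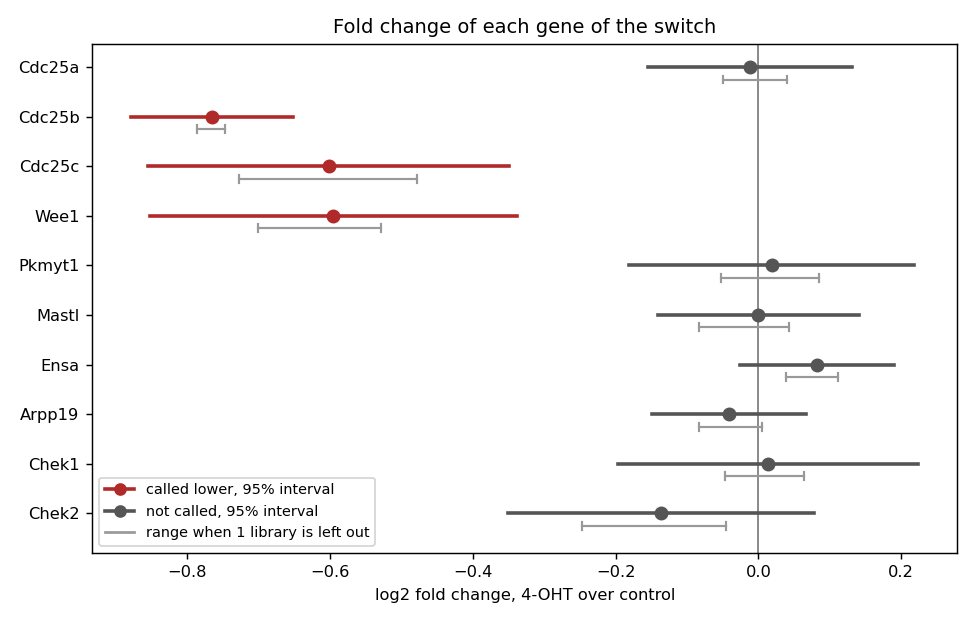
Log2 fold change of 4-OHT over control (horizontal axis) for each switch gene, with its 95% interval as a thick line, in red for genes called lower and in grey for genes not called. The thin bracket under each line is the range of estimates when 1 library at a time was left out. The intervals of Cdc25b, Cdc25c and Wee1 end below 0, and those of the other 7 genes span 0.

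No change was called in the Greatwall branch. Mastl (ENSMUSG00000026779, chromosome 2, 23116539 to 23156024, overlapping the protein-coding gene Yme1l1) was counted at 303, 307 and 357 reads in the 4-OHT libraries, against 316, 313 and 326 reads in the control libraries. The 4-OHT libraries held both the lowest and the highest values. Its log2 fold change was 0.00020 (SE 0.07, edgeR adjusted p = 0.999), with a 95% interval of -0.14 to 0.14. Ensa (ENSMUSG00000038619, chromosome 3, 95624980 to 95632117) was counted at 658, 602 and 605 reads in the 4-OHT libraries, against 604, 546 and 590 reads in the control libraries. The highest value was a 4-OHT library and the lowest a control library, but the groups overlapped. Its log2 fold change was 0.08 (SE 0.05, 95% interval -0.03 to 0.19, edgeR adjusted p = 0.410).

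Arpp19 (ENSMUSG00000007656, chromosome 9, 75037614 to 75060313, overlapping the lncRNA gene Gm51714) was counted at 573, 577 and 621 reads in the 4-OHT libraries, against 638, 572 and 590 reads in the control libraries. The groups overlapped, and the highest value was a control library. Its log2 fold change was -0.04 (SE 0.05, 95% interval -0.15 to 0.07, edgeR adjusted p = 0.752). ENSA and ARPP19 are close relatives that share the site phosphorylated by Greatwall. The log2 level of Arpp19 minus that of Ensa was -0.07 ± 0.12 in 4-OHT libraries and 0.05 ± 0.04 in control libraries, with overlap between groups (SD, n = 3 each; exact permutation p = 0.2, adjusted 0.3).

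The checkpoint kinase genes were not called. Chek1 (ENSMUSG00000032113, chromosome 9, 36708482 to 36726658), which encodes the kinase activated by ATR at stalled replication forks, was counted at 141, 135 and 146 reads in the 4-OHT libraries, against 126, 147 and 140 reads in the control libraries. Its groups overlapped, and its log2 fold change was 0.01 (SE 0.11, 95% interval -0.20 to 0.22, edgeR adjusted p = 0.968). Chek2 (ENSMUSG00000029521, chromosome 5, 110839800 to 110874140), which encodes the kinase activated by ATM at double-strand breaks, was counted at 156, 126 and 126 reads in the 4-OHT libraries, against 166, 137 and 140 reads in the control libraries. Replicate 1 was the highest in each group, and the groups overlapped. Its log2 fold change was -0.14 (SE 0.11, 95% interval -0.35 to 0.08, edgeR adjusted p = 0.522). The log2 level of Chek2 minus that of Chek1 differed by -0.15 between groups (exact permutation p = 0.6, adjusted 0.6).

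Over the 7 genes not called, the 95% intervals reached down to -0.35 and up to 0.22 on the log2 scale. The point estimates of Wee1 and Cdc25c lay outside the interval of each of these 7 genes. The intervals themselves were not all apart. That of Chek2 began at -0.3509, while that of Cdc25c ended at -0.3495 and that of Wee1 at -0.3382.

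**Figure D4:**
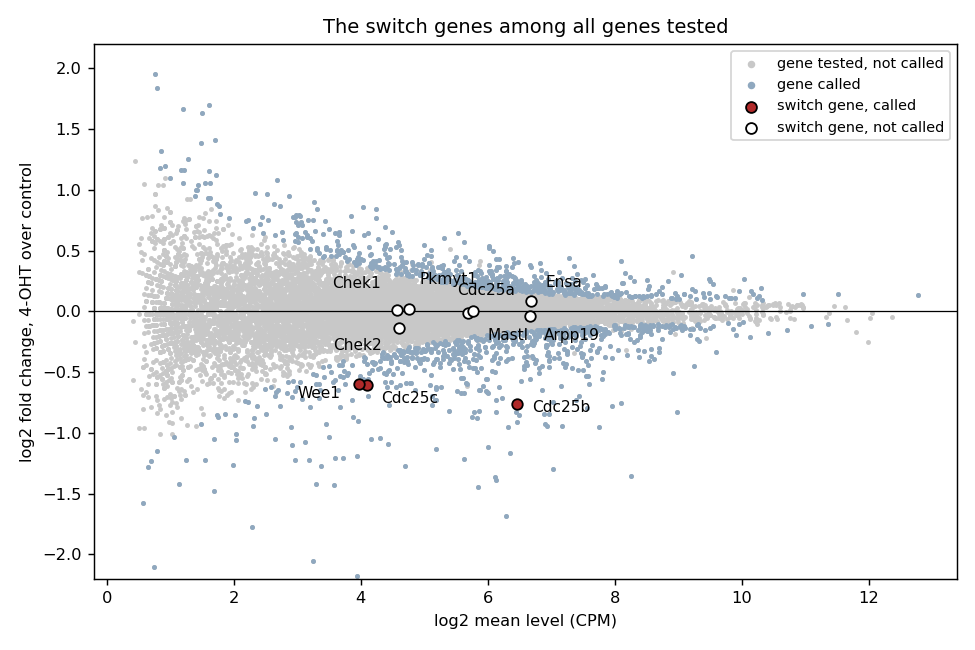
Log2 fold change of 4-OHT over control (vertical axis) against log2 mean level in CPM (horizontal axis) for all 13355 genes tested, with called genes in blue and the 10 switch genes as outlined circles. Cdc25b, Cdc25c and Wee1 (red) lie at -0.76, -0.60 and -0.60, and the other 7 (white) lie between -0.14 and 0.08.

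The authors' deposited table gives the same signs for 9 of the 10 genes. In the authors' deposited table the log2 fold change of Cdc25b is -0.77 (FDR 3.3e-34), that of Cdc25c is -0.61 (FDR 5.7e-05) and that of Wee1 is -0.60 (FDR 0.00016). For the other 7 genes the FDR in the authors' deposited table lies between 0.557 and 1. Mastl, at -0.0029 in the authors' deposited table, is the gene of the other sign.

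RNA of the kinase on which the switch acts, Cdk1, fell, as did RNA of its cyclins Ccnb1, Ccnb2 and Ccna2. Of 17 genes listed for CDK1, its cyclins and its upstream activators, 16 were tested, 10 were lower and 0 higher (edgeR; all genes tested 5.17% lower and 4.61% higher), with a median log2 fold change of -0.43 against 0.00052 over all genes tested. The list again gave 10 and 0 with unadjusted p and in limma-voom, and DESeq2 called 8 lower and 0 higher. Changes of several of these genes were known from earlier results of the same data when the list was drawn up. Plk1, the kinase that activates CDC25C and marks WEE1 for destruction, stood at 34.1, 41.8 and 39.9 CPM in 4-OHT libraries, against 104, 101 and 93.2 CPM in control libraries (log2 fold change -1.36). Aurka, which activates PLK1 together with BORA, stood at 39.0, 42.2 and 40.6 CPM in 4-OHT libraries, against 88.5, 93.6 and 81.9 CPM in control libraries (-1.12). Neither gene's groups overlapped. The cyclin genes Ccnb1 (-0.84) and Ccna2 (-0.74) also fell. The other called genes were Ccnb2 (-0.65), Bora (-0.62), Cdk1 (-0.61), Ccne1 (-0.44), Cks2 (-0.42) and Foxm1 (-0.15), all as log2 fold changes. The calls of Ccne1 and Foxm1 were lost in DESeq2 (adjusted p = 0.122 and 0.146). That of Foxm1 was also lost without 4-OHT replicate 1 or 3 and without control replicate 1 or 3 (edgeR adjusted p between 0.0538 and 0.0933).

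Of 10 genes listed for PP2A-B55, the phosphatase that ENSA and ARPP19 inhibit, 9 were tested and none was called (edgeR, median 0.06; all genes tested 5.17% lower and 4.61% higher). With the p left unadjusted, where 10.5% of all genes were lower and 10.7% higher, 0 of the 9 were lower and 2 higher, Ppp2r2a (log2 fold change 0.14, adjusted p = 0.0709) and Ppp2r1b (0.16, adjusted p = 0.119), and DESeq2 and limma-voom called none. Ppp2r2a, a B55 regulatory subunit gene, was called higher with library totals alone as the scaling (edgeR adjusted p = 0.0471) and without control replicate 3 (0.0472). Ppp2r1a, the scaffold subunit gene, stood at 247.5 ± 11.3 CPM in 4-OHT libraries and 238.2 ± 9.67 CPM in control libraries (SD, n = 3 each). Ptpa, listed in the matrix under the older symbol Ppp2r4 and encoding an activator of the phosphatase, stood at 150.5 ± 9.10 CPM in 4-OHT libraries and 156.9 ± 3.24 CPM in control libraries. Ppp2ca, a catalytic subunit gene, was listed at 0 in all 6 libraries. The reason for these 0 values was not tested.

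Of 23 genes listed for the ATR and ATM checkpoint upstream of CHK1 and CHK2, 22 were tested, 1 was lower and 0 higher (edgeR, median -0.01), beside 5.17% of all genes lower and 4.61% higher. Unadjusted, 3 were lower (Atm, H2afx and Rnf168) and 2 higher (Clspn and Rad50), beside 10.5% of all genes lower and 10.7% higher, and DESeq2 and limma-voom each called 1 lower and 0 higher. The called gene was H2afx, which encodes the histone variant phosphorylated around DNA breaks. It stood at 43.9, 49.1 and 50.6 CPM in 4-OHT libraries, against 62.7, 76.3 and 81.4 CPM in control libraries, with no overlap (log2 fold change -0.62, SE 0.07, edgeR adjusted p = 4.5e-09). Atm was called lower too without 4-OHT replicate 1 (edgeR adjusted p = 0.0136) and without control replicate 2 (0.0366). Rnf8 was listed at 0 in all 6 libraries, and the reason for these 0 values was not tested either.

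Of 22 genes listed for 14-3-3 proteins, which hold phosphorylated CDC25 inactive, and for the turnover of CDC25 and WEE1, 18 were tested, 3 were lower and 1 higher (edgeR, median 0.01), beside 5.17% of all genes lower and 4.61% higher. Unadjusted, 7 were lower and 4 higher, beside 10.5% and 10.7% of all genes. DESeq2 called 3 lower and 0 higher, and limma-voom 4 lower, with Hsp90ab1 added, and 1 higher. Hsp90ab1 was also called lower without 4-OHT replicate 3 (edgeR adjusted p = 0.0382), and Csnk2a1 without 4-OHT replicate 1 (0.0288). Cdc20, whose product switches on the anaphase-promoting complex, stood at 50.4 ± 4.73 CPM in 4-OHT libraries and 113 ± 1.37 CPM in control libraries (log2 fold change -1.17). Fzr1, which encodes its other activator CDH1, stood at 45.6 ± 4.24 CPM in 4-OHT libraries and 71.5 ± 4.68 CPM in control libraries (-0.65). Sfn, which encodes 14-3-3 sigma, stood at 63.3 ± 3.08 CPM in 4-OHT libraries and 82.6 ± 3.89 CPM in control libraries (-0.38). Fbxw11, a subunit gene of the ubiquitin ligase that marks CDC25A and WEE1 for destruction, was higher at 117 ± 5.79 CPM in 4-OHT libraries, against 100.7 ± 5.46 CPM in control libraries (0.22, edgeR adjusted p = 0.0024; all SD, n = 3 each). The Fbxw11 call was lost in DESeq2 (adjusted p = 0.0627). The other 6 genes of 14-3-3 proteins, Ywhab, Ywhae, Ywhag, Ywhah, Ywhaq and Ywhaz, were not called.

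**Figure D5:**
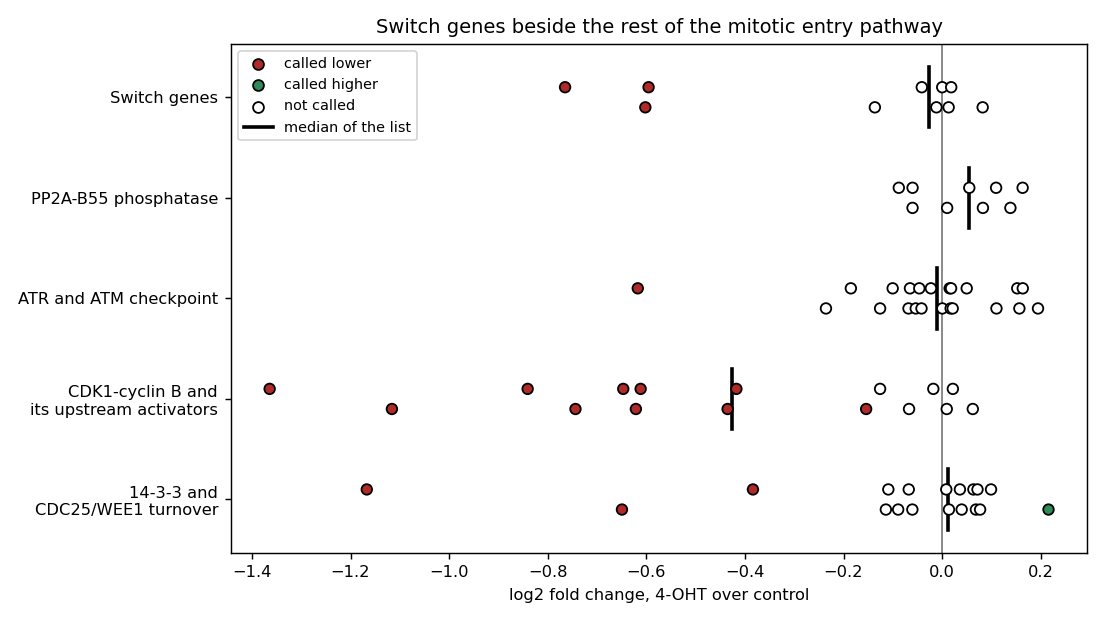
Log2 fold change of 4-OHT over control (horizontal axis) for the tested genes of the switch and of the 4 pathway lists (rows), with 1 circle per gene, in red if called lower, green if called higher and white if not called, and a black bar at the median of each list. The CDK1 list has 10 red circles of 16, the switch 3 of 10, and the phosphatase list none of 9.

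Among 10042 genes with a mean level of at least 10 CPM, those whose profile lay nearest to that of Cdc25b over the 6 libraries were Gm10259, Gm10184 and Ccna2. The measure was the Euclidean distance between log2 levels, each centred on the gene's control mean, and it came to 0.059, 0.077 and 0.092. Gm10259 and Gm10184 are annotated as pseudogenes, so their reads may belong to another gene. Their log2 fold changes were -0.78 and -0.76, and that of Ccna2, the cyclin A gene, was -0.74. These distances are a description without a test.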

How the data were processed

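RNA of KPL cells was analysed, 3 libraries with 4-OHT and 3 control libraries, with groups from the sample titles. The 27 ChIP-seq samples of the series were not analysed here. The authors deposited a matrix of whole-number read counts per Ensembl gene, not normalised, and a comparison table of log2 values (log2 fold change and log2 mean CPM), p-value and FDR, per the file headers. Per the submitters' processing notes, TopHat2 2.1.0, Bowtie 1.1.2, Bowtie2, bedtools 2.26.0 and edgeR were used. The mouse builds GRCm38.p6 and mm10 and the human builds GRCh37 and hg19 were named, with no roles. The counting program, the use of strand and the authors' test are not stated in these sources.

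Of 38951 lines, 27 exact repeats were dropped. Counts were tested in R 4.3.3 with edgeR 4.0.16 (filterByExpr, minimum count 10 and total 15, TMM, robust quasi-likelihood F test, two-sided, replicate numbers not in the model), with Benjamini-Hochberg adjustment of the p-values across 13355 genes. SE is the size of the log2 fold change over the root of F. The common biological coefficient of variation was 2.58%. Chi-square per degree of freedom was 1.26 to 1.48 within groups, so no libraries were merged. Differences between genes used log2 CPM with a prior count of 2 and an exact permutation test. DESeq2 1.42.0 and limma 3.58.1 gave alternatives. All 10 genes were named, with the 4 called genes of smallest p per pathway list (the 2 of highest level where none was called) and other called genes by fold change. Genes and lists were chosen with earlier results of these data known. Dub3 of the turnover list was not matched.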

Additional observations from a re-analysis of the deposited data

How the results depend on the processing

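Cdc25b, Cdc25c and Wee1 kept their direction under all 15 alternatives and stayed called under 14 of them. The exception was a null hypothesis of a 1.5-fold change (edgeR glmTreat), with log2 fold changes of -0.765 for Cdc25b (adjusted p = 0.0623), -0.603 for Cdc25c and -0.596 for Wee1 (adjusted p = 1 each), and -0.492 for Lin9 (adjusted p = 1). Under that null 0 of the 10 genes were called (1 lower with unadjusted p), 3 genes of the CDK1 list, 1 of the turnover list and 0 of the checkpoint list were lower, and 0 of the turnover list higher. Over all genes glmTreat called 45 lower and 0 higher (92 and 44 with unadjusted p under 0.05), DESeq2 367 lower and 209 higher, and the edgeR fits without 1 library 508 to 643 lower and 403 (without control replicate 1) to 542 higher, against 691 and 616. DESeq2 called 0 turnover genes higher. In the phosphatase list 1 gene was higher with library totals alone, and 0 to 1 without 1 library, and in the checkpoint list 1 to 2 were lower without 1 library.

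Of the 7 genes not called, Ensa (0.0390 to 0.112) and Chek2 (-0.247 without 4-OHT replicate 1 to -0.0446 without control replicate 1) kept their sign under all 15 alternatives, and the other 5 did not. Mastl changed by -0.0023 with RLE factors, -0.0013 with upper-quartile factors, -0.0017 with no low-count filter, -0.0022 in DESeq2, -0.0038 in limma-voom and -0.00066 with the replicate block. Without 1 library the log2 fold change ran from -0.0835 to 0.0423 for Mastl, -0.0495 to 0.0403 for Cdc25a, -0.0530 to 0.0854 for Pkmyt1, -0.0832 to 0.0046 for Arpp19 and -0.0471 to 0.0641 for Chek1. It ran from -0.79 to -0.75 for Cdc25b, -0.73 to -0.48 for Cdc25c and -0.70 to -0.53 for Wee1.

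Same-numbered libraries were not seen to deviate together (correlations -0.00973, 0.00964 and -0.0259 over genes). Whether libraries of the same number were prepared as pairs was not tested. With the replicate block 3 of the 10 genes were lower and 0 higher, and 665 lower and 579 higher over all genes. With 150 bases before the start site a CHR word was in 1 of 7 genes (12.0% of all windows), CCAAT in 5 (28.6%) and an E2F word in 2 (7.26%), without Chek2. Wee1 and Cdc25c rest on 66 to 130 reads per library, the lowest among the 10 genes, which limits their precision.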

Other observations

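Because an inhibitor and activators of CDK1 fell together, their levels were set against each other within each library, a description chosen after the values were seen and given without a test. The log2 level of Cdc25b minus that of Wee1 was 2.19, 2.48 and 2.45 in 4-OHT libraries, against 2.54, 2.59 and 2.50 in control libraries. All 4-OHT values were the lower ones, with means that differed by -0.17, and by -0.08 without 4-OHT replicate 1, an alternative chosen after seeing the data. Cdc25c minus Wee1 was 0.11 ± 0.25 in 4-OHT libraries and 0.12 ± 0.10 in control libraries (SD, n = 3 each). The log2 level of Cdk1, the kinase that both act on, minus that of Wee1 was 3.15 ± 0.15 in 4-OHT libraries and 3.17 ± 0.07 in control libraries. The means of Cdk1 and Wee1 thus differed from each other by about as much in either group, with a change of -0.02 (0.06 without 4-OHT replicate 1) that is smaller than the spread between libraries.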
